A study of Mus musculus with 2 samples.

Results

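Arg1-expressing myeloid cells were taken from droplet-based sequencing of the RNA of single cells of mouse aorta, as the cell barcodes that held at least 2 unique molecular identifiers (UMIs, counted molecules) of Arg1. A member also had at least 1 UMI of Ptprc, the pan-leukocyte antigen CD45, at least 1 UMI of Csf1r, Lyz2 or Cd68, and none of the T cell gene Cd3e or the B cell gene Cd79a. Of the 19897 barcodes left by a filter on gene number (500 or more) and mitochondrial UMIs (no more than 10%), 73 were members, 71 in the library with endothelial Cept1 overexpression and 2 in the control library. The measured Arg1 UMIs chose the members, so the Arg1 level is a description and nothing rests on it. Spp1, Slc7a2, Rai14 and Mmp14 were named as marker genes of these cells from the same libraries, so their levels are descriptions too.

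The study compared 2 groups of adult male C57BL6 mice with 1 library each. Both groups carried the Cept1fl/fl genotype. The Cept1 group also carried VE-cadherin-Cre-ERT2, a tamoxifen-inducible recombinase under the promoter of an endothelial adhesion gene, so that the intended overexpression was in endothelial cells and not in leukocytes, and the control group was Cre-. Per the labels' protocols, tamoxifen was injected daily at 1 mg for 5 days in littermates of at least 8 weeks, with 5 days of recovery, while the age label reads 6 to 8 weeks; aortic tissue of 3 mice per condition was digested, and pooling is not stated. The title of the series asks about angiogenesis, PPAR and VEGF-A. With 1 library per group no difference has a replicate check and none was tested, and all intervals are exact 95% intervals for counting error only.

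Arg1 encodes arginase 1, which turns arginine into ornithine and urea. In macrophages it is a classical gene of alternative activation by interleukin-4, and it is also induced by lactate, hypoxia and phagocytosis of dying cells. The wall of the healthy aorta holds resident macrophages, many of them marked by Lyve1, Folr2 and Cd163, and receives few monocytes from blood through the chemokine receptor Ccr2.

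The libraries held 17728 and 14349 barcodes in all, of which 11168 (Cept1) and 8729 (control) passed the filter, with medians of 6438.5 and 6735 UMIs. They shared 74 barcode sequences, 1 of them a member in the Cept1 library. Cept1, the targeted gene, stood at 108 UMIs per 1000000 UMIs of a set (CPM) in barcodes with Cdh5 and Pecam1 but no Ptprc in the Cept1 library and at 72.4 CPM in those of the control library. The Cept1 library was also higher in smooth muscle barcodes (51.6 against 38.4 CPM), T cell barcodes (77.6 against 58.5), neutrophil barcodes (78.6 against 59.5), fibroblast barcodes (49.9 against 44.0), B cell barcodes (60.2 against 57.6) and myeloid barcodes without members (102 against 82.9). In the members it stood at 97.4 CPM, close to the 107 CPM of that library's barcodes with Ptprc, Csf1r and Lyz2 but no Arg1 (log2 ratio -0.13, interval -0.45 to 0.17).

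The 250-base windows upstream of 5 RefSeq transcription starts (build GRCm38.p6) are shown first, because genes of glycolysis and hypoxia were high together in the members and because Mmp14 and Spp1 are among the named markers. They were chosen among windows free of annotated exons after the values were seen. Capitals mark ACGTG, the core of the hypoxia response element, and GAGGAA, a core of the myeloid factor PU.1, on either strand; the AP-1 motif TGANTCA was searched too and lies in none of the 5. The windows are chrX:106186850-106187099 (plus strand), chr7:46845554-46845803 (plus), chr12:54203875-54204124 (minus), chr14:54431348-54431597 (plus) and chr5:104434861-104435110 (plus), each printed 5′ to 3′ along its gene.
Pgk1: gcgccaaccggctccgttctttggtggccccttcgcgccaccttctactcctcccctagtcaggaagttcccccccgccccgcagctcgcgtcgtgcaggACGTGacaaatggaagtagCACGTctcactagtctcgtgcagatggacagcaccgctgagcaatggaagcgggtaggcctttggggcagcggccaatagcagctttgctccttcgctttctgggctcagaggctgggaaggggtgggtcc
Ldha: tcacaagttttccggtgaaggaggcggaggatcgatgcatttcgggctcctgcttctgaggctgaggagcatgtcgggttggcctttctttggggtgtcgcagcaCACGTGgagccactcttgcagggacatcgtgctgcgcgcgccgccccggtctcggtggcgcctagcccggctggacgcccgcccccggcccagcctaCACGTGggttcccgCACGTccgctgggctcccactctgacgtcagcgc
Egln3: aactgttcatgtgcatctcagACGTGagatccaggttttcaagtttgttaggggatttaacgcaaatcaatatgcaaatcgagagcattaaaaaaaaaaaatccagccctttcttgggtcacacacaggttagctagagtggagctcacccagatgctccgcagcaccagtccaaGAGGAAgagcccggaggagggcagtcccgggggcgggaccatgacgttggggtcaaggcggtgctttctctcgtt
Mmp14: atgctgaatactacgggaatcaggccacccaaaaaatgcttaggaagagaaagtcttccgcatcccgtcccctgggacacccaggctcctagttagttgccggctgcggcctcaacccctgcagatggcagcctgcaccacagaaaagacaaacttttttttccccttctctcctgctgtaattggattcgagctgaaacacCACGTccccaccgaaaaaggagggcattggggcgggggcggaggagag
Spp1: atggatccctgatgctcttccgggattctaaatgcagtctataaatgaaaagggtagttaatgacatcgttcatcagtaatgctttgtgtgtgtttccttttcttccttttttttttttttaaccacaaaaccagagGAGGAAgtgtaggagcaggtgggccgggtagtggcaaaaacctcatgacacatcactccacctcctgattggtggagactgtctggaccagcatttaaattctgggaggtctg
Counting both strands, ACGTG occurs 2 times in the Pgk1 window and 5 times in the Ldha window, where each CACGTG is read on both strands, and 1 time in each of the Egln3 and Mmp14 windows. The Spp1 window has no ACGTG and 1 GAGGAA. Of the windows of this length, 16.6% of all 32851 held ACGTG, as did 22.4% of the windows of the genes measured here, 25.3% of the windows of genes at least 2-fold higher in members and 21% of those at least 2-fold lower. Of the glycolysis and hypoxia list, 26 of 28 genes had a window, and 18 of their 36 windows held it. These are letter matches and describe the sequences only.

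Members made up 3.29% (interval 2.58 to 4.13) of the 2157 barcodes in the Cept1 library that met the leukocyte and myeloid conditions, and 0.175% (0.0212 to 0.631) of the 1142 in the control library. As a share of all filtered barcodes they were 0.636% and 0.0229%. The labels name a sorting step without its gate, which can set such shares. The members' median depth was 11776 UMIs (2394 to 49072) in the Cept1 library against 8778 in its other myeloid barcodes, and the myeloid gate without members was deeper in the control library (median 10122) than in the Cept1 library (8448.5). Barcodes with at least 3000 UMIs were thinned to 3000, shallower ones were left out, and the rule was applied again. The shares were then 3.16% of 1518 gated barcodes (Cept1) and 0.135% of 739 (control). The genotype and the single library of each group cannot be told apart in this difference.

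Members held 2329 of the 2657 Arg1 UMIs of the filtered Cept1 barcodes, with a lowest count of 2, a median of 20 and a highest of 190 per member. The control library held 78 Arg1 UMIs, 15 of them in its 2 members. Outside the myeloid gate, Arg1 was seen in the Cept1 library in 0.456% of fibroblast barcodes, with Pdgfra and Col1a1 but no Ptprc (median 6362.5 UMIs), and in 0.252% of the endothelial barcodes (7303), against 4.40% of the myeloid gate. It was seen in 0 of 102 neutrophil barcodes, with at least 5 UMIs each of S100a8 and S100a9 and no Csf1r (median 4499 UMIs), where the exact interval for barcodes with a UMI reaches 3.55%; at this depth it does not limit the share of cells that express the gene. Just inside the threshold were 9 members with 2 UMIs, and just outside it 24 gated barcodes with 1 UMI. Their medians were 10923 and 7213 UMIs, and Fn1 stood at 7024 CPM in the former and 3084 CPM in the latter. The 2 sets also differ in cell type: of the clusters described below, cluster 12 held 4 of the 9 and 5 of the 24. Cluster 24, where Fn1 stood at 40.4 CPM in Cept1 barcodes, held 8 of the 24 and some of the 9.

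Another 26 barcodes of the Cept1 library had at least 2 Arg1 UMIs but were not members. Of these, 3 failed the filter, 7 lacked Ptprc and 4 carried Cd3e or Cd79a. The rest had Ptprc but no UMI of Csf1r, Lyz2 or Cd68. In the control library 9 such barcodes were not members, of which 2 failed the filter and 1 lacked Ptprc. The rest there also had Ptprc but none of Csf1r, Lyz2 and Cd68.

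The rule asks for Csf1r, Lyz2 or Cd68, so the myeloid label was checked on the 9 other macrophage and monocyte markers. All 9 were detected in the members, at 3034 CPM summed against 8026 CPM in the reference; 66 of 71 members had at least 3 such UMIs and 3 had none. The reference is the 1834 barcodes of the Cept1 library with at least 1 UMI each of Ptprc, Csf1r and Lyz2 and none of Arg1. Unlike the members, it was not cleared of Cd3e and Cd79a and held 57 and 132 UMIs of them. The B cell marker values below are set in part by these unequal rules. Neutrophil markers stood at 124 against 1514 CPM, with Retnlg, Ly6g and Camp at 0 in members. Innate lymphoid markers stood at 574 against 183 CPM, fibroblast markers at 2629 against 2857 CPM and endothelial markers at 450 against 287 CPM. B cell markers stood at 193 against 862 CPM, platelet markers at 406 against 1995 CPM, erythroid markers at 4424 against 4591 CPM and dendritic markers at 480 against 482 CPM; the part of these cell types in the differences below was not tested. At least 3 UMIs of fibroblast markers were present in 60 of 71 members and in 1276 of 1834 reference barcodes. Scrublet, a doublet caller, marked 6 of 71 members and 4.77% of all filtered barcodes of the Cept1 library. Without the marked barcodes, 1961 of that library's 2157 gated barcodes were left.

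The members did not form a single cluster. When the 3299 gated barcodes of both libraries were clustered without Arg1, 53 of the 71 Cept1 members fell into cluster 12, whose leading genes were Fn1, Spp1, Saa3, AA467197, Prg4, Olr1, Slpi, Alox15, Slc7a2 and F10. Of the 67 Cept1 barcodes in cluster 12, 58 had at least 1 Arg1 UMI. The cluster also held 12 control barcodes, of which 2 had Arg1 and 0 had Spp1; Fn1 stood there at 8821 CPM against 14237 CPM in the Cept1 barcodes, and Vegfa at 79.7 against 193 CPM. Among the 71 Cept1 members, Saa3, Prg4 and Alox15 came from few barcodes, with 61.3%, 83.3% and 100% of the members' UMIs in 1 barcode. These shares leave out the barcodes of cluster 12 that are not members.

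**Figure D1:**
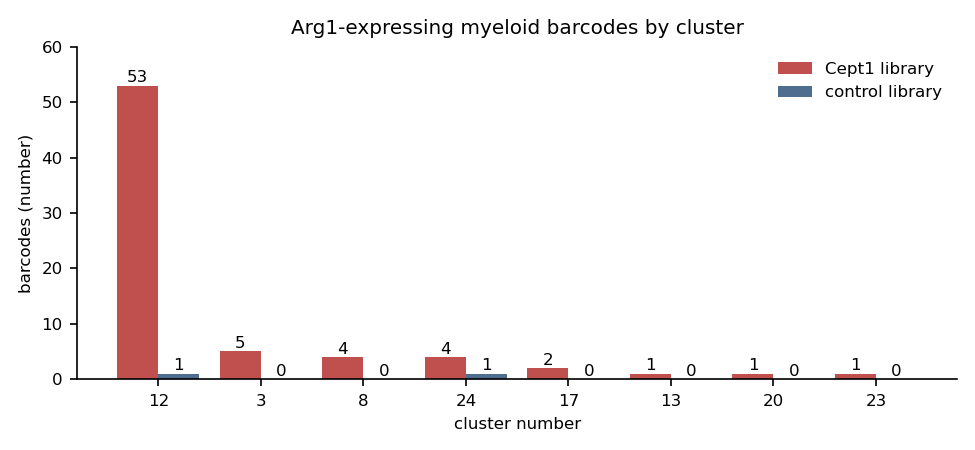
Number of members (vertical axis) in each cluster of gated myeloid barcodes, made without Arg1 and given on the horizontal axis by number. Cluster 12 held 53 members of the Cept1 library and 1 of the control library, and no other cluster held more than 5.

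The other 18 members were spread over 7 clusters. Cluster 3, led by S100a9, S100a8 and collagen genes, held 5 members, whose fibroblast markers summed to 1902 UMIs. Cluster 8, led by Ccl21a of lymphatic endothelium, held 4 members with 269 UMIs of endothelial markers and 122 of innate lymphoid markers. All 4 had at least 3 innate lymphoid UMIs, 3 had Il1rl1, and Gata3, Il7r and Il2ra were each seen in 2. For 1 of them the myeloid label rests on 1 UMI of Lyz2, with 0 of Csf1r and Cd68. Cluster 24 held 4 members of the Cept1 library and 1 of the control library. All 4 had Il7r, Rora, Il1rl1 and Il2ra, 3 had Gata3 and Klrg1, and 1, with 83 Lyz2 and 14 Csf1r UMIs, had at least 3 UMIs of macrophage markers. In the other 3 the myeloid label rests on 1 UMI each of Csf1r or Lyz2. The control member there held 1 UMI of macrophage markers and 49 of innate lymphoid markers. In cluster 24, 12 of 19 Cept1 barcodes and 2 of 5 control barcodes had Arg1.

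The 4 other named markers were shared unevenly among members. Spp1, the secreted matrix protein osteopontin, had a lowest count of 0, a median of 1 and a highest of 263 UMIs per member and was seen in 36 of 71. It stood at 1099 CPM in members, 5.10 in the reference and 2.75 in the same gate of the control library, and was seen in 1.31% of reference barcodes. In the neutrophil barcodes of the Cept1 library Spp1 stood at 76.8 CPM and was seen in 7 of 102. A single member gave 25.6% of the Spp1 UMIs, and the log2 ratio over the reference was 7.75 with it and 7.33 without it.

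Slc7a2, a transporter that brings arginine into the cell, was seen in 40 of 71 members (0 to 84 UMIs, median 1) and stood at 378 against 7.24 CPM. Rai14, an actin-binding protein, was seen in 54 members (0 to 16 UMIs, median 3) and stood at 280 against 10.0 CPM. Mmp14, a membrane-bound collagenase, was also seen in 54 (0 to 12 UMIs, median 2), at 200 against 18.1 CPM. Of these 4 genes, 19 members had all 4, 23 had 3, 15 had 2, 9 had 1 and 5 had none. In the reference no barcode had all 4, 9 had 3 and 1552 had none, at a lower median depth.

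In GRCm38 coordinates Arg1 lies at chromosome 10, 24915221 to 24927484 (minus strand), Spp1 at chromosome 5, 104435118 to 104441050 (plus), Slc7a2 at chromosome 8, 40862396 to 40922308 (plus), Rai14 at chromosome 15, 10568969 to 10714624 (minus) and Mmp14 at chromosome 14, 54431612 to 54445364 (plus).

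**Figure D2:**
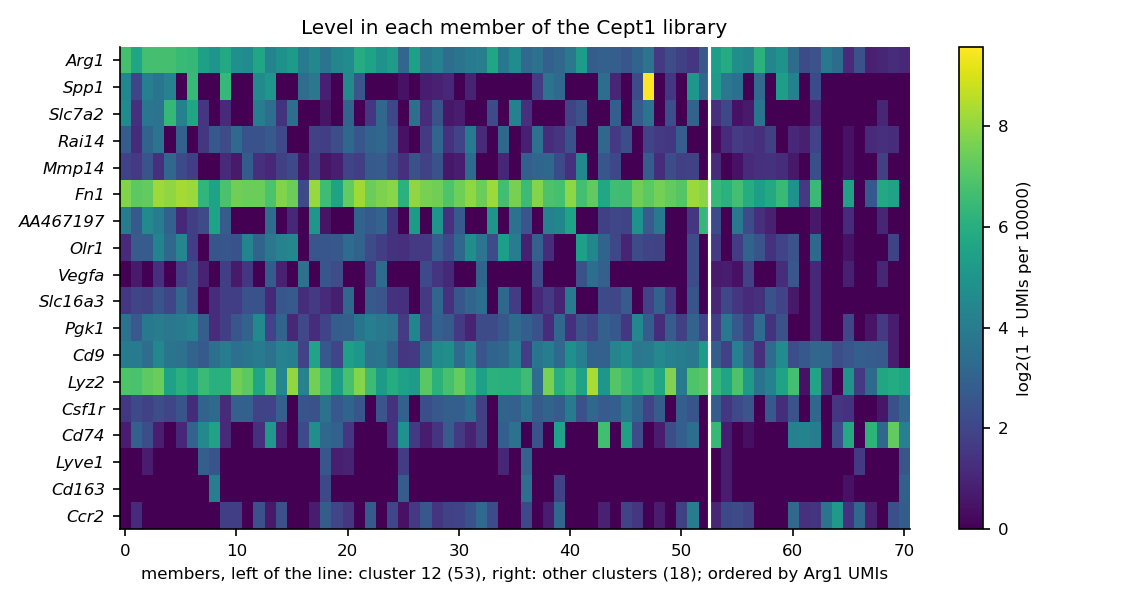
Level of 18 genes (vertical axis) in each of the 71 Cept1 members (horizontal axis), as log2 of 1 plus UMIs per 10000; members left of the white line lie in cluster 12 (53) and those right of it in other clusters (18), each ordered by Arg1 UMIs. Fn1 and Lyz2 are bright in nearly every member of cluster 12, whereas Spp1 and Slc7a2 vary from 0 to high levels among neighbours.

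The members were then set against the reference gene by gene, on UMIs summed over each set. Of 6351 measured genes (at least 20 UMIs expected in each sum under equal levels), 347 (5.46%) were at least 2-fold higher in members and 752 (11.8%) at least 2-fold lower; the median log2 ratio was -0.04. The rule places Arg1 among the 347. Csf1r, required of every reference barcode but not of members, is among the 752. Both shares are the background for the list counts below, and Arg1 is left out of all lists. The reference was 137 monocyte-type barcodes (Ccr2 and neither Folr2 nor Cd163), 1364 resident-type barcodes (Folr2 or Cd163 and no Ccr2) and 333 of neither kind, and the choice between these kinds moved many ratios. Of the 347 higher genes, 128 (Arg1 among them) were also at least 2-fold higher than in monocyte-type barcodes, and 213 of the 541 lower genes measured there were also at least 2-fold lower. Of all 6344 genes measured against monocyte-type barcodes, 333 were at least 2-fold higher in members and 359 at least 2-fold lower. Over 6346 genes the members' profile had a Spearman correlation of 0.87 with the monocyte-type and 0.74 with the resident-type barcodes, and these 2 had 0.77 with each other; this describes sums from 1 library and genes are not replicates.

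**Figure D3:**
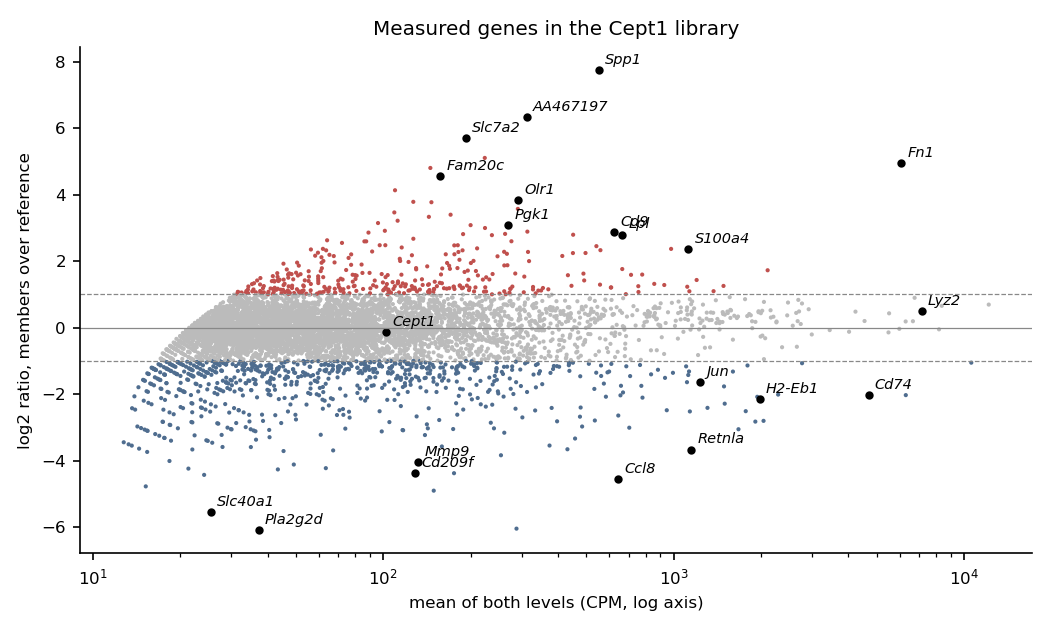
Log2 ratio of members over reference (vertical axis) against the mean of the 2 levels in CPM (log horizontal axis) for measured genes with UMIs in both sets; red is at least 2-fold higher, blue at least 2-fold lower. Fn1 is the high gene with the greatest level, and Cept1 and Lyz2 lie inside the 2-fold lines.

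Outside the named markers, the genes with the highest ratios included matrix, coagulation and lipid-binding proteins and receptors. Fn1, the matrix protein fibronectin, was seen in 67 of 71 members with a lowest count of 0, a median of 122 and a highest of 469 UMIs. It stood at 11778 CPM in members, 382 in the reference and 683 in the control library's reference (log2 ratio 4.95, interval 4.90 to 4.99). Against monocyte-type barcodes, at 1505 CPM, the ratio was 2.97. AA467197 stood at 615 against 7.68 CPM (6.32), the kinase gene Fam20c at 301 against 12.8 (4.55), and Olr1, the receptor for oxidized LDL, at 543 against 38.2 (3.83). F10, coagulation factor X, was at 3.77, Hp, haptoglobin, at 3.40, Ceacam1 at 3.33, the lipoprotein gene Apoc2 at 3.15 and the transcription factor Bhlhe40 at 3.08. Against monocyte-type barcodes AA467197 (5.13), Fam20c (3.43) and Ceacam1 (2.04) stayed above 2, and Olr1 (1.43), Bhlhe40 (1.31), F10 (1.07), Hp (1.02) and Apoc2 (0.89) were lower than that. Slpi, a protease inhibitor, and Fabp5, a fatty acid carrier, were at 3.00 and 2.91, and the top member for each, a different barcode, gave 32.0% and 36.5% of their UMIs; without it they were at 2.47 and 2.29.

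At the low end, Pla2g2d, a secreted phospholipase, had 1 UMI in members and 1309 in the reference (log2 ratio -6.10, interval -11.40 to -3.62). Siglec1, the sialic acid receptor CD169, had 2 against 722 (-4.24, -7.29 to -2.38). These 2 genes were also near 0 in monocyte-type barcodes, with 2 and 7 UMIs. The antiviral gene Oas2 had 2 against 823 (-4.43, -7.48 to -2.57) and was at -4.01 against monocyte-type barcodes.

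**Figure D4:**
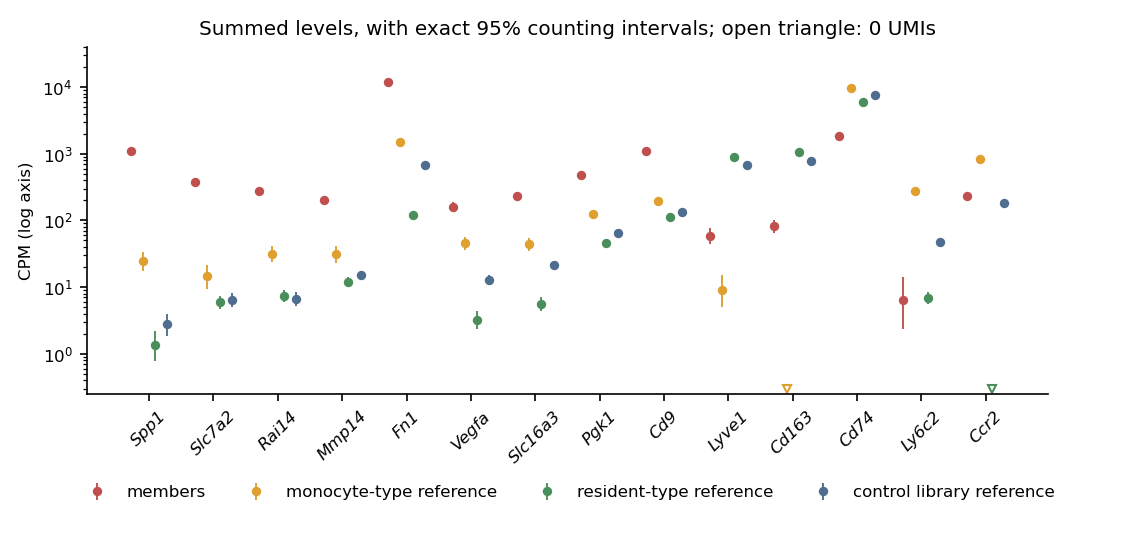
Summed level in CPM (log vertical axis) of 14 genes (horizontal axis) in members, monocyte-type and resident-type barcodes of the Cept1 library and the reference of the control library, with exact 95% counting intervals; open triangles mark 0 UMIs, which the subset rules fix for Cd163 and Ccr2. Members stand above all 3 other sets for Spp1, Slc7a2, Rai14, Mmp14, Fn1, Vegfa, Slc16a3, Pgk1 and Cd9.

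Glycolysis and hypoxia genes were the list with the highest median. Of 21 measured, 15 were at least 2-fold higher and 1 lower, with a median log2 ratio of 2.24. Slc16a3, the lactate exporter, had a lowest count of 0, a median of 3 and a highest of 10 UMIs per member, was seen in 52 of 71 and stood at 237 against 17.2 CPM (3.78, 3.53 to 4.04). Pgk1, phosphoglycerate kinase, was seen in 65 members and stood at 481 against 57.0 CPM (3.07). The enzymes Pgam1 (2.78), Tpi1 (2.48), Gapdh (2.37), Eno1 (2.33), Ldha (2.28), Aldoa (2.24) and Pkm (2.00) lay along the same pathway. Beyond these enzymes, Mif was at 2.82, Hilpda, a lipid droplet protein induced by hypoxia, at 2.48, Ero1l at 2.33 and Hif1a, the oxygen-regulated transcription factor subunit, at 1.70. The early step genes Hk1 (-0.03), Hk2 (0.04) and Pfkp (0.49) stayed inside 2-fold, and Pfkfb3 was at -2.20. Against monocyte-type barcodes the median was 1.23, with 17 of 25 measured at least 2-fold higher. Egln3, an oxygen sensor, had 22 UMIs in members and 21 in the reference, at 23.5 against 1.18 CPM (4.32, 3.39 to 5.26), below the measuring limit.

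Vegfa, the endothelial growth factor in the title of the series, was below that limit too and is given by its counts. Members held 150 UMIs and the reference 160, at 161 against 8.97 CPM (log2 ratio 4.16, interval 3.83 to 4.49). It was seen in 33 of 71 members with a lowest count of 0, a median of 0 and a highest of 23 UMIs, and the 71 members held 34.9% of all Vegfa UMIs of the myeloid gate. It stood at 45.5 CPM in monocyte-type and 3.26 CPM in resident-type barcodes, and at 12.95 CPM in the control library's reference. In the same library, neutrophil barcodes stood at 73.2 CPM. Outside leukocytes, its endothelial barcodes stood at 45.5 CPM and its fibroblast barcodes at 39.8. Of 11 other VEGF and angiogenic genes measured, 3 were at least 2-fold higher and 3 lower. Sema4d (2.29) and Pdgfb (1.70), a growth factor for mural cells, were among the former, and Bmp2 (-3.06), Hbegf (-2.42) and Vegfb (-1.59) were the latter; against monocyte-type barcodes Bmp2 was at 0.46 and Sema4d at 0.41. Flt1 was at 1.06, and at 0.18 without 1 member that gave 46.9% of its UMIs.

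In the lipid-associated and phagolysosome list, 10 of 23 measured genes were at least 2-fold higher and 1 lower (median 0.90). Spp1 is among the higher ones. The list median was larger against monocyte-type barcodes (1.24), with 12 of 23 measured genes at least 2-fold higher and none at least 2-fold lower. Cd9, a tetraspanin, was seen in 70 of 71 members with a lowest count of 0, a median of 12 and a highest of 68 UMIs, at 1100 against 149 CPM (2.88). Lpl, lipoprotein lipase, stood at 1165 against 167 CPM (2.80, and 0.88 against monocyte-type barcodes), Itgax at 2.25, Lgals3 at 1.76 (-0.085 against monocyte-type barcodes) and Trem2, a lipid-sensing receptor, at 1.45. Apoe was at -2.03, and at -0.04 against monocyte-type barcodes. Fabp4 was at 1.60, and at -0.06 without 1 member that gave 68.8% of its UMIs.

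Of 14 arginine and polyamine genes measured, Slc7a2 among them, 2 were at least 2-fold higher and 1 lower (median -0.19). Sms was at 1.06, Odc1, ornithine decarboxylase, at 0.77, and the arginine importer Slc7a1 at -0.52. Paox, a polyamine oxidase, had 3 UMIs in members, a ratio of -3.32 with an interval of -5.60 to -1.77. Arg2 had 13 UMIs and a ratio of 0.44 (-0.50 to 1.25), and Nos2, the competing arginine enzyme, had 0 UMIs in members and 5 in the reference.

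Genes of alternative activation by interleukin-4 were lower in members more often than higher. Of 17 measured, 3 were at least 2-fold higher and 7 lower (median -0.97). Retnla, a secreted gene of that state, stood at 167 CPM in members and 2126 in the reference (-3.67), and 1 member gave 44.2% of its UMIs. Mgl2 was at -3.66, Cd209a at -3.59, Mrc1 at -3.06 and Clec10a at -2.86. Il1rn, the interleukin-1 receptor antagonist, was at 2.86, Tgm2 at 2.47 and Chil3 at 1.59. Against monocyte-type barcodes 4 genes of the list were at least 2-fold higher and 6 at least 2-fold lower (median -0.32). Mrc1 (-0.50) and Clec10a (-0.41) stayed inside 2-fold there. Chil3, at 370 CPM there, was lower in members (-1.65).

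Genes of resident aortic macrophages were the list with the lowest median. Of 21 measured, 19 were at least 2-fold lower and none higher (median -2.81). Lyve1, a hyaluronan receptor, stood at 58.9 against 688 CPM (-3.55) and was seen in 12 of 71 members and in 73.3% of the reference. Cd163 was at -3.34, Folr2 at -2.82, Selenop at -2.81, the complement gene C1qa at -2.51, Cd209f at -4.38 and Ccl8 at -4.56. Igf1 (0.00) stayed inside 2-fold. Against resident-type barcodes the median was -3.12. Against monocyte-type barcodes, where Folr2 and Cd163 are 0 by rule, it was 0.53 over 17 measured genes, and Ccl8 (2.19), Lyve1 (2.69) and Timd4 (5.21, with 1 UMI in the reference) were higher in members. Ccl8 was seen in 8 of 71 members, and 1 of them held 34 of its UMIs, against 15 in all others.

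The monocyte list was mixed. Of 18 measured, 8 were at least 2-fold higher and 2 lower (median 0.67, and -0.38 over 20 genes against monocyte-type barcodes). Clec4e (2.89), Clec4d (2.28), the integrin Itgal (2.18) and Vcan (1.64) were high beside Fn1, F10 and Hp; against monocyte-type barcodes Itgal was at 0.47 and Vcan at -0.76. Ccr2 was seen in 44 of 71 members and stood at 237 against 183 CPM (0.37), while monocyte-type barcodes, chosen by Ccr2, stood at 831. Ly6c2 and Plac8, genes of classical blood monocytes, were at -2.39 and -1.81. Against monocyte-type barcodes they were at -5.43 and -4.59, with 6 Ly6c2 UMIs in members, and against resident-type barcodes Plac8 was at 0.74.

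Antigen presentation genes were low. Of 13 measured, 10 were at least 2-fold lower and none higher (median -1.95). Cd74, the invariant chain of MHC class II, had a lowest count of 0, a median of 2 and a highest of 415 UMIs per member and stood at 1842 against 7544 CPM (-2.03). H2-Eb1 was at -2.14, H2-Ab1 at -2.08 and their transactivator Ciita at -2.00. The members of cluster 12 stood at 1014 CPM of Cd74 and the other 18 at 3385 CPM. Against monocyte-type barcodes the median was -2.38.

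Interferon response genes were low as well. Of 17 measured, 14 were at least 2-fold lower and none higher (median -1.68), and the median was -1.46 against monocyte-type barcodes. Ifit1 had 0 UMIs in members and 692 in the reference, which with a floor of 3 counts over the members is at least 12.1-fold lower. Rsad2 was at -2.55, Ifi207 at -2.40 and Zbp1 at -1.67.

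Matrix and cytoskeleton lists had positive medians. Of 24 measured matrix genes, 9 were at least 2-fold higher and 5 lower (median 0.61, and -0.15 with the members of cluster 12 alone). Besides Fn1 and Mmp14, Thbs1, thrombospondin 1, was at 1.79. Plau, the plasminogen activator urokinase, was at -2.89 and the gelatinase Mmp9 at -4.05 (0.54 against monocyte-type barcodes). Thbs1 was lower in members than in monocyte-type barcodes (-0.73). Of 33 cytoskeleton and integrin genes, 14 were at least 2-fold higher and 3 lower (median 0.83), with S100a4 at 2.37 and Anxa2 at 2.33 (0.64 and 0.88 against monocyte-type barcodes) and the leukocyte integrin chains Itgb2 and Itgam at 2.16 and 1.63.

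Inflammatory genes were divided: of 21 measured, 4 were at least 2-fold higher and 5 lower (median -0.07). Il1b, at 851 against 368 CPM (1.21), Il1a (1.16), Tnf (1.06) and Ptgs2 (1.42) were higher, and the chemokines Ccl12 (-4.38), Ccl7 (-2.68), Ccl2 (-2.08), Ccl3 (-1.31) and Cxcl10 (-1.06) lower. Ptgs2 was at 0.74 without 1 member that gave 38.3% of its UMIs. Against monocyte-type barcodes Il1b (-0.70) and Ptgs2 (-0.51) were lower in members, and Ccl7 was at 0.30. A single member held 65 Ccl7 UMIs, against 55 in all others.

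Among thiol and iron genes, 6 of 19 measured were at least 2-fold higher and 2 lower (median 0.24). Txn1, thioredoxin, was at 2.24, and Gclm, of glutathione synthesis, at 1.61. Slc40a1, the iron exporter ferroportin, had 1 UMI in members and 889 in the reference (-5.54, interval -10.85 to -3.06). Slc7a11, the cystine importer, stood at 353 against 67.6 CPM (2.38, and 0.58 against monocyte-type barcodes). It belongs to a stress list where 2 of 13 measured were at least 2-fold higher and 2 at least 2-fold lower (median -0.25).

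PPAR and phospholipid genes bear on the pathways the study addresses. Of 15 measured PPAR and lipid receptor genes, 1 was at least 2-fold higher and 3 at least 2-fold lower (median 0.08, and -0.29 with the members of cluster 12 alone). Among all measured genes 5.46% were at least 2-fold higher and 11.8% lower. On so few genes these counts, and those of the phospholipid genes below, do not stand out from those shares. Ppara had 0 UMIs in members and 24 in the reference, a difference not detectable at this depth. Pparg was at 0.91, 0.53 without the member with most of its UMIs and -0.32 against monocyte-type barcodes. It stood at 34.6 CPM in the members of cluster 12, below the 46.1 CPM of the reference, and at 184 CPM in the other 18. Ppard was at -1.74. Of 17 phospholipid genes, 2 were at least 2-fold higher and 3 at least 2-fold lower (median -0.10). The acyltransferase Lpcat2 was at 1.90 and Pcyt1a, the rate-limiting enzyme of phosphatidylcholine synthesis, at -1.74 (-0.13 against monocyte-type barcodes).

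Cell cycle genes were not high: of 8 measured, none was at least 2-fold higher and 4 were lower (median -0.93). Top2a had 12 UMIs, 83.3% of them in the 1 member that lay in the cycling cluster 20. Of 25 immediate early genes, which tissue digestion is known to induce, none was at least 2-fold higher and 9 were lower (median -0.89), with Jun at -1.63 and Fosb at -1.36; the part of dissociation in any difference was not tested.

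**Figure D5:**
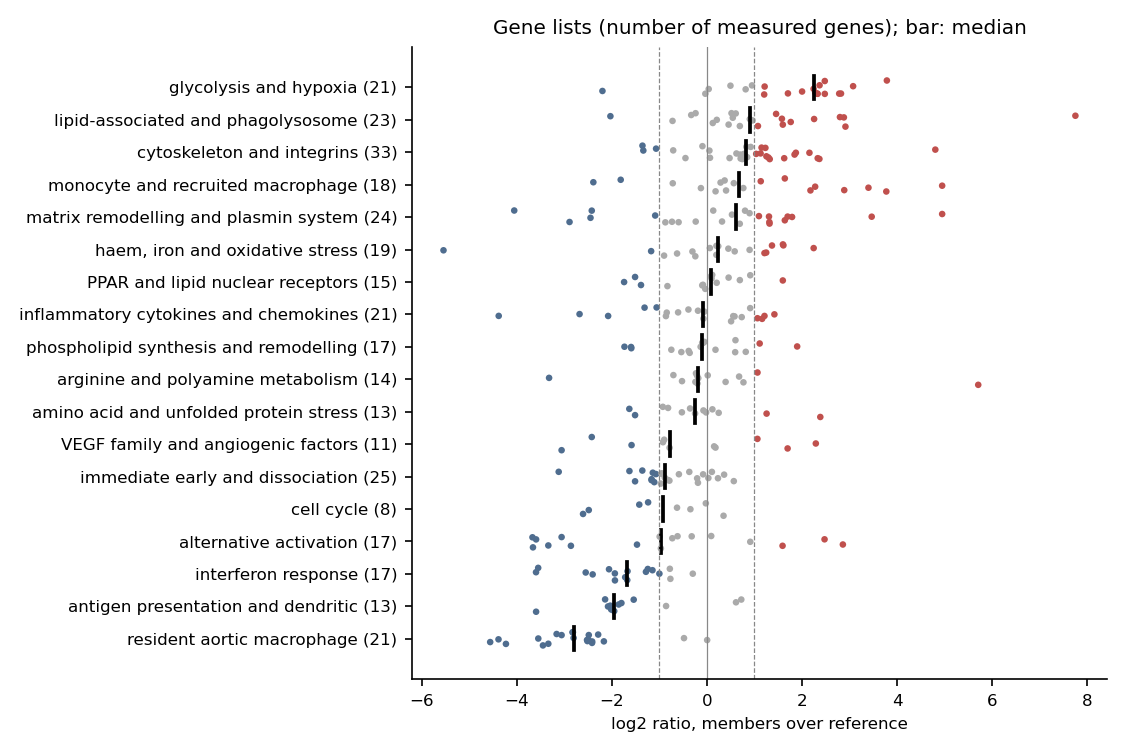
Log2 ratio of members over reference (horizontal axis) for the measured genes of 18 lists (vertical axis, number of genes in brackets), a point per gene and a bar at the median; dashed lines mark 2-fold and Ifit1, with 0 UMIs, is drawn at its 3-count floor. The medians run from -2.81 for resident aortic macrophage genes to 2.24 for glycolysis and hypoxia genes.

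The members were also described by their Arg1 counts. In the 13 members with 2 to 4 Arg1 UMIs, Slc7a2 stood at 122 CPM, in the 22 with 5 to 19 at 98.9 and in the 36 with 20 or more at 579. Fn1 stood at 8249, 10857 and 13224 CPM in the same order, and Vegfa at 51.3, 181 and 183 CPM. Spp1 stood at 1948, 338 and 1197 CPM and Mmp14 at 109, 276 and 192 CPM, so neither followed the Arg1 count; a single member gave 263 of the 304 Spp1 UMIs of the lowest class. Of these members 7 of 13, 17 of 22 and 29 of 36 lay in cluster 12. Medians of depth were 10923, 10928 and 12650 UMIs, and these levels are within 1 library. The 2 control members held 11 Arg1 UMIs (in cluster 12) and 4 (in cluster 24), with 221 Fn1 UMIs, 2 of Slc7a2, 1 of Vegfa and none of Spp1 between them, too few to describe as a group.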

How the data were processed

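Whole mouse aortas of 2 groups were profiled by 10x Genomics 3′ v3 single-cell RNA sequencing, 1 library each. The authors deposited UMI counts for each gene and barcode without normalization. Per the file headers they come from Cell Ranger 7.2.0. Seurat and the mm10 build are named in the submitters' processing notes. The sources used here do not say how intronic reads were treated. Of 32285 features, 32158 (99.6%) matched GENCODE vM21 (GRCm38), the source of coordinates; promoter sequences are from RefSeq. Counting without a stated use of strand can mix overlapping genes.

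Levels are UMIs summed over a set of barcodes, per 1000000 UMIs of that set (CPM). A log2 ratio compares 2 such levels, with an exact 95% Clopper-Pearson interval for the split of a gene's UMIs. Barcodes are not replicates, so no test was run and no p-value computed. A gene was measured with at least 20 UMIs expected in each sum and called at 2-fold.

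Named genes were those of the rule, the given markers, the 15 highest and 15 lowest measured genes (seen in at least 20% of the set where higher), 4 per list for 18 lists, and 11 fixed genes; others named were chosen after their values were seen. Members, lists and rules were chosen with earlier results of these data known. Gated barcodes were clustered without Arg1 (Leiden, resolution 1, 30 components of 2000 variable genes, 20 neighbours; scanpy 1.11.5). Doublets were called by Scrublet at the Cept1 library's automatic threshold (0.241) in both libraries, because the control library's own (0.702) called 0 barcodes, and were removed only in an alternative. It called 533 and 183 barcodes.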

Additional observations from a re-analysis of the deposited data

How the results depend on the processing

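No paired analysis was possible because each group has 1 library. The share of members in the Cept1 library was 4.40% with at least 1 Arg1 UMI, and it stayed inside its counting interval under the other 4 settings; the control share did so under all 5. Of the counts of genes 2-fold higher and lower (347 and 752), 10 expected UMIs gave 526 higher, 50 expected UMIs gave 175 and 473, thinning to 3000 UMIs gave 119 and 415, and the monocyte-type reference gave 359 lower. Leaving out barcodes with at least 3 UMIs of other cell types left 2 members and 102 reference barcodes, with 7 higher and 20 lower among 33 genes, so that comparison could not be made at a useful depth. Restricting members to cluster 12, chosen after the data were seen, gave 281 and 905, and 205 of the 235 higher genes still measured were shared.

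Among results at least 2-fold from equal, with genes' intervals on 1 side of it, the monocyte-type reference turned the direction of the resident macrophage list median (0.53) and of Csf1r (0.068), Ccl8 (2.19), Cd209f (3.28), Cd209g (2.40), Mmp9 (0.54), Lyve1 (2.69), Ccl7 (0.30), Ptgs2 (-0.51), Bmp2 (0.46), Rxra (0.012), Timd4 (5.21), Thbs1 (-0.73), Chil3 (-1.65), Il1b (-0.70), Treml4 (-0.14) and Lgals3 (-0.085). Monocyte-type barcodes were chosen by Ccr2 and by the absence of Folr2 and Cd163. That choice sets in part the resident list's turn and the Ccr2 value below. Csf1r was required of reference barcodes and seen in 84.5% of members, so its ratio partly reflects the rules. Ccl8 and Ccl7 lean on 1 member each, with 34 and 65 UMIs against 15 and 55 in all others. The resident-type reference turned Plac8 (0.74) and Cd226 (0.87). Leaving out barcodes with other cell types' UMIs turned Slpi (-0.77), Ppp1r9a (0.13), Top2a (4.73) and Il1b (-1.12), each from 1 to 3 UMIs in members. Cluster 12 alone turned Fabp4 (-0.69) and Gata6 (-0.70), the stricter barcode filter turned Prg4 (-0.36), and leaving out the member with most UMIs of the gene, also chosen after the data were seen, turned Fabp4 (-0.056) and Prg4 (-0.31). Among results inside 2-fold, the monocyte-type reference changed the sign of 11 of 21 named genes, with Pparg at -0.32, Ccr2 at -1.81 and Arg2 at -0.97, and of 4 of 14 list medians, with the monocyte list at -0.38 and the VEGF list at 0.54. Cluster 12 alone changed that of 4 of 20 genes, with Pparg at -0.42, and of 3 of 14 list medians. The cause was not tested. With 1 library per group, 71 members and 934280 UMIs in them, genes under the measuring limit cannot be compared reliably.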
